A study of Mus musculus with 12 samples.

Results

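The 8 genes that encode the subunits of the condensin complexes were taken by gene name from the count and FPKM tables, which list 54532 genes, and each name matched 1 gene. FPKM is a fragment count scaled by gene length and by library depth. They are Smc2 and Smc4, whose products are shared by both complexes, Ncapd2, Ncapg and Ncaph, specific to condensin I, and Ncapd3, Ncapg2 and Ncaph2, specific to condensin II. RNA-seq was performed in 12 libraries of bone marrow macrophages from C57BL/6J wild-type mice aged 2 to 3 months, expanded in 15% serum with CSF-1, first at 12 ng/ml and then at 120 ng/ml for 48 h. The macrophages were plated without coating or on fibronectin (10 µg/ml), a matrix ligand of α5 integrin (ITGA5), and all were exposed for 24 h to 10 µg/ml of an antibody. Each antibody, IgG or anti-ITGA5, was used on uncoated plates (without fibronectin) and on coated plates (with fibronectin), which gave 4 groups of 3 libraries. The anti-ITGA5 antibody is a neutralizing one and the Itga5 gene was intact in all groups. The study describes its replicates as biologically independent experiments, the labels only number them, and neither says which mice or cultures they came from.

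Condensins are ring-shaped ATPases that extrude DNA loops. Smc2 and Smc4 pair to form the long arms and the ATPase heads of the ring, a kleisin subunit (NCAPH in condensin I, NCAPH2 in condensin II) closes it, and a pair of HEAT-repeat subunits (NCAPD2 with NCAPG, or NCAPD3 with NCAPG2) binds the kleisin and contacts DNA. Condensin II resides in the nucleus throughout the cell cycle and begins to act in prophase, whereas condensin I is mostly cytoplasmic in interphase and reaches the chromosomes after the nuclear envelope breaks down. Together they compact and resolve the chromosomes of dividing cells. Bone marrow macrophages kept in CSF-1 are a partly dividing population, and in bulk RNA a larger share of dividing cells cannot be told apart from more transcript in each cell.

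Counts on genes ranged from 12954342 to 22075432 per library, and the condensin genes held from 389 (Ncapg) to 5811 (Smc4) counts in a library, so all 8 passed the filter on low counts. The second replicate of anti-ITGA5 without fibronectin stood apart from the others. It had the lowest total and 21123 genes with at least 1 count, against 19542 to 20426 in the other libraries. The calls of the subunits and of all genes and the ratio of condensin I to condensin II are also given without it. The 8 macrophage markers, among them Csf1r, Adgre1 and Lyz2, were present in every library with a summed level of 6129 to 9822 FPKM, and the markers of neutrophils and granulocyte progenitors summed to 1.86 to 4.53 FPKM, with Ly6g at 0 throughout. Markers of fibroblasts, progenitors, lymphocytes, erythroid and endothelial cells summed to 3.04 FPKM or less in every library, and Cd3d was at 0 throughout. The summed macrophage markers were lower in the anti-ITGA5 groups, at 6129 to 7517 FPKM without fibronectin and 7336 to 7506 FPKM with it, than in the IgG groups, at 8977 to 9822 and 9558 to 9759 FPKM. In each antibody comparison Lyz2, Itgam, Mertk and Cd68 fell, Cd14 rose and the other 3 were not called. The call of Cd14 with fibronectin was lost in 7 of 17 alternatives (adjusted p up to 0.211), among them those without replicate 1 or 3 of IgG or replicate 1 or 2 of anti-ITGA5, and that of Cd68 without fibronectin in 6 of 17 (up to 0.643), among them those without any 1 of the IgG libraries. Lyz2 lost its call in 1 of 17 alternatives in either comparison, limma on all genes (0.880 and 0.408). Of the other lists' markers, Cd34 (-0.41, adjusted p = 0.0334) and Mpo (-0.94, adjusted p = 0.0499), named after their values were seen, were called lower with fibronectin and none without it, and these calls were lost in 10 of 17 alternatives (up to 0.246) and in 11 of the 13 that gave a value (up to 0.147). The part of this shift in the results below was not tested.

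The 5′ flanks of the genes are shown because the subunits moved together and because the factors that time transcription to late cell cycle phases bind known motifs there. Those searched, on both strands, were TTTGAA and TTCGAA (the CHR, bound by the MuvB complex together with B-MYB and FOXM1 in dividing cells), CCAAT (bound by NF-Y), and GCGGGAA and TTGGCGC (bound by E2F). TTGGCGC ends in CCAA on its opposite strand, so it can overlap a CCAAT. In the RefSeq table of promoters (build GRCm38.p6, 250 bases before to 50 bases after a start) 7 of the 8 genes were found, all but Smc4. The printed stretches end before the start and leave out bases that GENCODE annotates as exon, with matches in capitals. The first is the flank of the shared Smc2 (chr4:52438971-52439220, plus strand), the next are those of Ncapd2 (chr6:125191702-125191800, minus strand) and Ncapg (chr5:45669709-45669918, plus strand) of condensin I, which changed most, and the last is that of Ncaph2 (chr15:89355660-89355718, plus strand) of condensin II.
Smc2: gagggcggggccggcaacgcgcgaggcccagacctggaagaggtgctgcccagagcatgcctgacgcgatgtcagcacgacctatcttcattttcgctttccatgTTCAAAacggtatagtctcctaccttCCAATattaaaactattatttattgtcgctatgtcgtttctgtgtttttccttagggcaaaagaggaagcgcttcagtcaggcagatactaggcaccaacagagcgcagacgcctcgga
Ncapd2: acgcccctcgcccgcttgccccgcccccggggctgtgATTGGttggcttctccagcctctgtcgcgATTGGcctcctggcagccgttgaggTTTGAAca
Ncapg: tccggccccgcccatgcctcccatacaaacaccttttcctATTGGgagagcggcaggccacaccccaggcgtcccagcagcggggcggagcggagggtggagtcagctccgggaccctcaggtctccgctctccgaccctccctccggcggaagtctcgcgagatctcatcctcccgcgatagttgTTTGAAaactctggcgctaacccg
Ncaph2: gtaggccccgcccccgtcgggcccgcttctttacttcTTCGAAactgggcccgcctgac

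Over the whole window of the first start listed for each gene, a CHR was found in 5 of the 7 genes (Smc2, Ncapd2, Ncapg, Ncapg2 and Ncaph2), CCAAT in 3 (Smc2, Ncapd2 and Ncapg), and an E2F motif in 5 (Ncapd2, Ncapg, Ncaph, Ncapd3 and Ncapg2). Of all 32851 promoter windows in the table, 19.2% held a CHR, 37.4% held CCAAT and 6.81% held an E2F motif. CHR and CCAAT occurred together in Smc2, Ncapd2 and Ncapg, a combination found in 7.52% of all windows. In Ncapg the CHR covered bases -30 to -25 from the start and CCAAT, on the opposite strand, bases -176 to -172. In Ncapd2 the CHR lay at -123 to -118, CCAAT at -177 to -173, -148 to -144 and -48 to -44, and TTGGCGC at -7 to -1. In the condensin II genes the CHR lay at -18 to -13 in Ncapg2 and, as TTCGAA, at -22 to -17 in Ncaph2. Ncapd3 has a second start in the table, which lies inside the gene (window chr9:27060166-27060465). That window held a CHR only, at -249 to -244, whereas the window of the first start held none. Ncaph alone of the 7 genes had no CHR in any of its windows. These matches describe the sequence and do not show that a factor binds.

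The first question was whether ITGA5 neutralization changed the condensin transcripts. All 8 subunits rose upon ITGA5 neutralization, without and with fibronectin, and none fell. Of all genes tested, 11.0% were called higher without fibronectin and 14.4% with fibronectin (edgeR quasi-likelihood test, adjusted p of 0.05 or less), and 9.79% and 13.2% were called lower. These are 1419 higher and 1265 lower genes without fibronectin and 1866 and 1699 with it, and scaling by total counts in place of TMM (trimmed mean of M-values) moved the split to 1838 and 940 and to 2407 and 1264, while all 8 subunits stayed called higher. Condensin I rose most, with a median log2 fold change of its 3 specific subunits of 1.04 in either comparison. The shared subunits followed, with 0.76 without and 0.78 with fibronectin, and condensin II rose least, with 0.30 and 0.36. The median over all genes tested was 0.01 without and -0.0038 with fibronectin. No FPKM value of an anti-ITGA5 library overlapped those of its IgG group for any of the 8 subunits, which was so, in the higher direction, for 18.7% of all genes tested without fibronectin and for 21.7% with it. The exact permutation test of FPKM, 2-sided, gave p = 0.1 for each subunit in either comparison, the smallest p that 3 against 3 libraries allow. The condensin genes together held 0.0661% to 0.0812% of the counts of an IgG library and 0.107% to 0.130% of those of an anti-ITGA5 library.

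**Figure D1:**
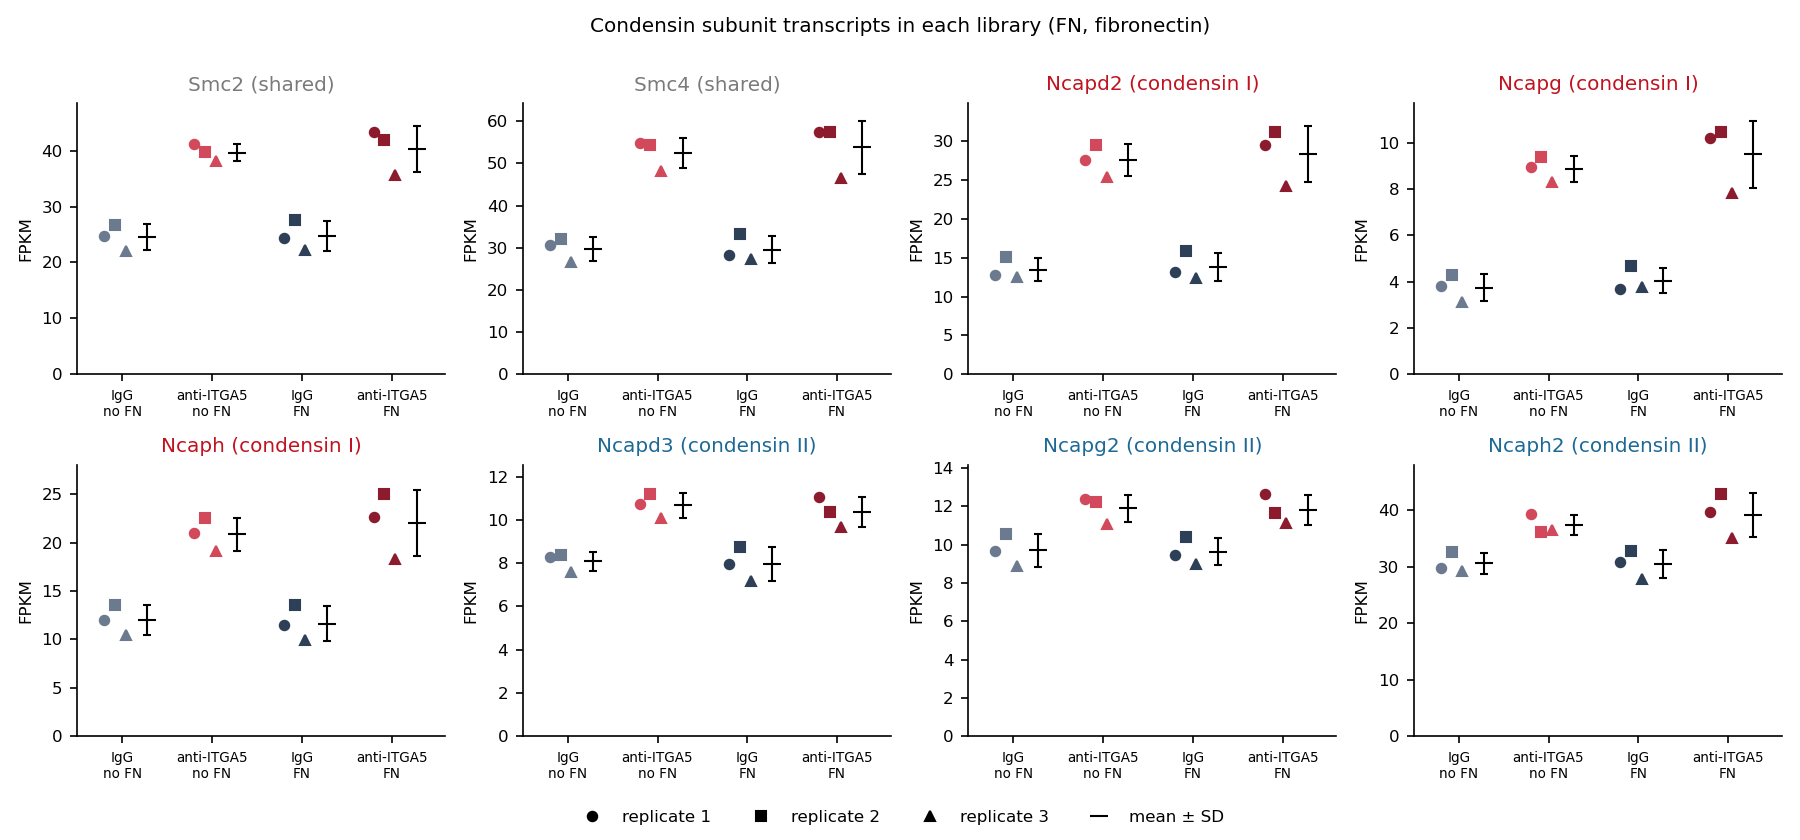
FPKM of each condensin subunit (vertical axis, from 0) in the 4 groups (horizontal axis). Symbols are single libraries by replicate number, and the bars give the mean ± SD of 3 libraries. All anti-ITGA5 libraries lie above the IgG libraries of the same coating, with the widest separation relative to the level for Ncapg and Ncapd2.

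The shared subunits were the most abundant members together with Ncaph2. Smc2 (chr4:52439243-52488260, plus strand) was at 24.8, 26.8 and 22.1 FPKM in replicates 1, 2 and 3 of IgG without fibronectin and at 41.1, 39.7 and 38.1 FPKM in anti-ITGA5 without fibronectin. On fibronectin it was at 24.3, 27.6 and 22.2 FPKM in IgG and at 43.4, 41.9 and 35.7 FPKM in anti-ITGA5. The lowest anti-ITGA5 library thus lay above the highest IgG library in either coating. Its log2 fold change was 0.70 ± 0.07 (SE, adjusted p = 7.77e-05) without and 0.70 ± 0.08 (adjusted p = 4.36e-05) with fibronectin, or 1.62-fold and 1.63-fold.

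Smc4 (chr3:69004738-69034623, plus strand), the partner of Smc2 in the ring, was at 30.6, 32.0 and 26.5 FPKM in IgG and 54.9, 54.3 and 48.3 FPKM in anti-ITGA5 without fibronectin. With fibronectin the values were 28.3, 33.2 and 27.3 FPKM in IgG and 57.5, 57.5 and 46.5 FPKM in anti-ITGA5. Replicate 3 was the lowest library in each group, and the groups of a coating did not overlap. The log2 fold change was 0.83 ± 0.08 (SE, adjusted p = 5.53e-05) without and 0.86 ± 0.08 (adjusted p = 1.49e-05) with fibronectin. The ratio of Smc4 to Smc2 FPKM was 1.21 ± 0.021 and 1.20 ± 0.035 in the IgG groups and 1.32 ± 0.051 and 1.33 ± 0.035 in the anti-ITGA5 groups (SD, n = 3), without and with fibronectin. An intron of Smc4 holds the microRNA genes Mir15b and Mir16-2, which share no exon base with it.

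Of the condensin I subunits, Ncapg (chr5:45669919-45700546, plus strand), a HEAT-repeat subunit, had the lowest level and the steepest rise. It was at 3.82, 4.28 and 3.14 FPKM in IgG and 8.94, 9.39 and 8.29 FPKM in anti-ITGA5 without fibronectin. With fibronectin it was at 3.68, 4.66 and 3.79 FPKM in IgG and 10.2, 10.5 and 7.81 FPKM in anti-ITGA5. Its lowest anti-ITGA5 library exceeded the highest IgG library by 4.01 FPKM without and 3.15 FPKM with fibronectin. The log2 fold change was 1.25 ± 0.10 (SE, adjusted p = 2.47e-05) without and 1.23 ± 0.11 (adjusted p = 9.89e-06) with fibronectin, which is 2.37-fold (95% interval 2.03 to 2.77) and 2.34-fold (1.98 to 2.77). The 3′ end of Ncapg shares 944 exon bases with Lcorl on the opposite strand, and the strand setting used for counting is not given in the sources used here. Lcorl itself was not called, with log2 fold changes of -0.06 and 0.06.

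Ncapd2 (chr6:125168007-125191701, minus strand), the other HEAT-repeat subunit of condensin I, was at 12.8, 15.2 and 12.5 FPKM in IgG and 27.6, 29.6 and 25.5 FPKM in anti-ITGA5 without fibronectin. On fibronectin it was at 13.2, 15.8 and 12.3 FPKM in IgG and 29.6, 31.2 and 24.3 FPKM in anti-ITGA5. The gap between the groups exceeded the range within either of them. The log2 fold change was 1.04 ± 0.08 (SE, adjusted p = 2.49e-05) without and 1.04 ± 0.10 (adjusted p = 1.1e-05) with fibronectin, or 2.05-fold in either. Scarna10 lies within Ncapd2 and shares 237 exon bases with it on the same strand.

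Ncaph (chr2:127103809-127133954, minus strand), the kleisin of condensin I, was at 12.1, 13.6 and 10.5 FPKM in IgG and 20.9, 22.6 and 19.1 FPKM in anti-ITGA5 without fibronectin. The values with fibronectin were 11.5, 13.6 and 9.92 FPKM in IgG and 22.7, 25.0 and 18.3 FPKM in anti-ITGA5. Replicate 2 was the highest and replicate 3 the lowest library in all 4 groups. The log2 fold change was 0.80 ± 0.10 (SE, adjusted p = 0.000251) without and 0.91 ± 0.11 (adjusted p = 9.29e-05) with fibronectin, the smallest of the condensin I subunits.

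The condensin II subunits rose less. Ncapd3 (chr9:27030175-27095315, plus strand), a HEAT-repeat subunit, was at 8.30, 8.36 and 7.59 FPKM in IgG and 10.8, 11.2 and 10.1 FPKM in anti-ITGA5 without fibronectin. With fibronectin it was at 7.95, 8.76 and 7.20 FPKM in IgG and 11.1, 10.3 and 9.66 FPKM in anti-ITGA5. The groups did not overlap, but the gap between them was 0.896 FPKM with fibronectin, less than the range within either group. The log2 fold change was 0.40 ± 0.07 (SE, adjusted p = 0.00159) without and 0.38 ± 0.07 (adjusted p = 0.00183) with fibronectin.

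Ncapg2 (chr12:116405402-116463731, plus strand), the counterpart of Ncapg in condensin II, was at 9.68, 10.6 and 8.87 FPKM in IgG and 12.4, 12.2 and 11.1 FPKM in anti-ITGA5 without fibronectin. With fibronectin its level was 9.46, 10.4 and 9.01 FPKM in IgG and 12.6, 11.6 and 11.1 FPKM in anti-ITGA5. The groups were closest for this subunit without fibronectin, where the lowest anti-ITGA5 library lay 0.484 FPKM above the highest IgG library. The log2 fold change was 0.30 ± 0.07 (SE, adjusted p = 0.0165) without and 0.29 ± 0.06 (adjusted p = 0.00362) with fibronectin. The call without fibronectin was lost when replicate 1 of IgG (adjusted p = 0.0771), replicate 3 of IgG (0.0815) or replicate 1 of anti-ITGA5 (0.0650) was left out, with log2 fold changes of 0.29, 0.24 and 0.27. Over all alternatives its adjusted p ran from 0.00247 to 0.124.

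Ncaph2 (chr15:89355719-89372826, plus strand), the kleisin of condensin II, had the highest mean FPKM of the subunits in both IgG groups, with libraries that overlapped those of Smc4. It was at 29.8, 32.7 and 29.2 FPKM in IgG and 39.4, 36.1 and 36.5 FPKM in anti-ITGA5 without fibronectin, and at 30.8, 32.7 and 27.9 FPKM in IgG and 39.6, 42.8 and 35.1 FPKM in anti-ITGA5 with fibronectin. The groups of a coating did not overlap. Its log2 fold change was 0.29 ± 0.06 (SE, adjusted p = 0.00568) without and 0.36 ± 0.07 (adjusted p = 0.00252) with fibronectin. Its 3′ end shares 829 exon bases with Sco2 and 535 with Tymp, both on the opposite strand. How reads on these bases were counted is not given in the sources used here, so its level is less certain. Tymp was not called in either comparison, and Sco2 had too few counts to be tested.

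Without the second replicate of anti-ITGA5 without fibronectin, the 8 subunits were still called higher, with log2 fold changes of 0.27 to 1.20 and adjusted p-values of 1.06e-07 to 0.00755 (edgeR). Of the 13161 genes then tested, 1992 were called higher and 1842 lower, against 1419 and 1265 of 12924 with that library.

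**Figure D2:**
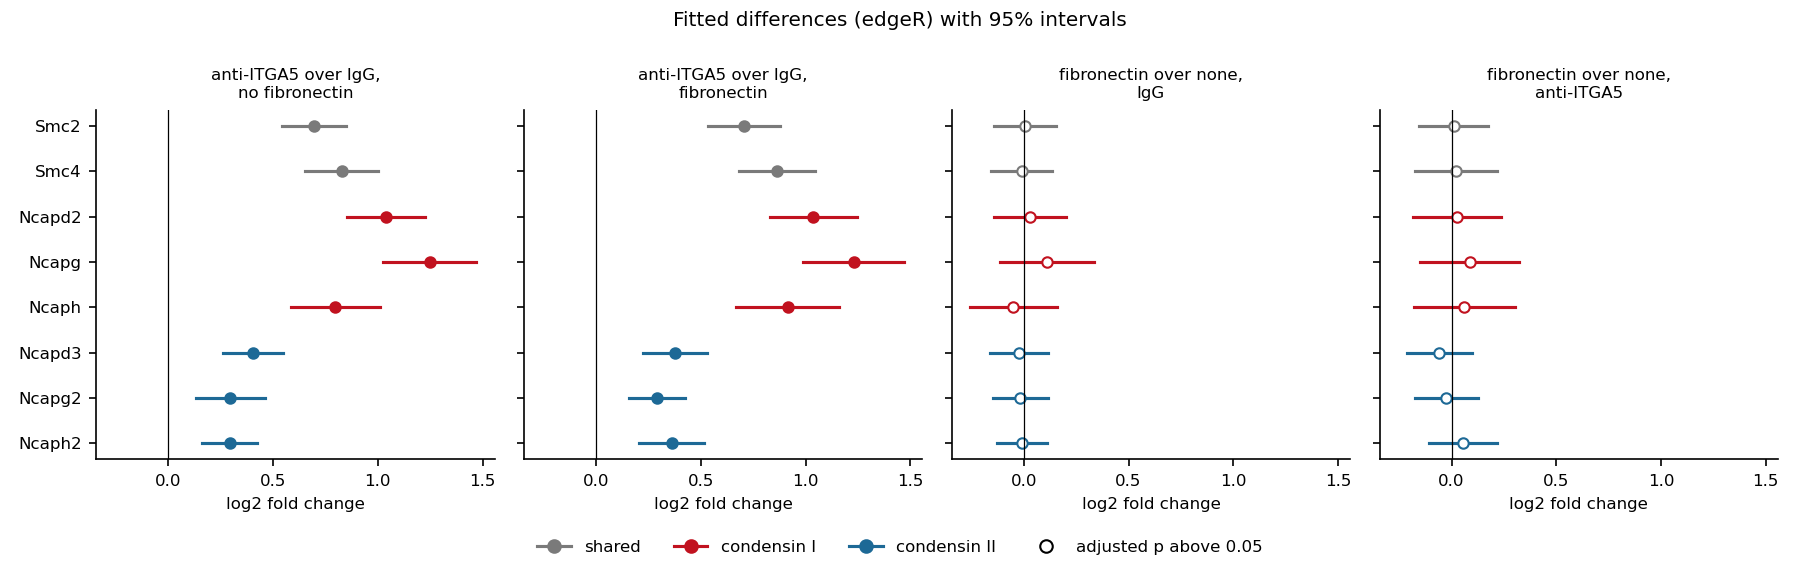
Fitted log2 fold changes (horizontal axis) of the 8 condensin subunits with 95% intervals, by comparison, in grey for shared, red for condensin I and blue for condensin II subunits; open circles did not pass an adjusted p of 0.05. In both antibody comparisons the condensin II intervals end below those of condensin I, and in both fibronectin comparisons all intervals span 0.

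The second question was how condensin I and condensin II compared. In each antibody comparison the 95% intervals of all 3 condensin I subunits lay above those of all 3 condensin II subunits. Without fibronectin the lowest bound in condensin I was 0.59 (Ncaph) and the highest in condensin II was 0.55 (Ncapd3), and with fibronectin the bounds were 0.67 (Ncaph) and 0.53 (Ncapd3). The difference between the classes was not tested, since the members were chosen by complex with results of these data known. The summed FPKM of Ncapd2, Ncapg and Ncaph was 29.3 ± 3.50 (SD, n = 3) in IgG and 57.3 ± 4.31 in anti-ITGA5 without fibronectin, and 29.5 ± 4.10 and 59.8 ± 8.47 with fibronectin. The summed FPKM of Ncapd3, Ncapg2 and Ncaph2 was 48.3 ± 3.00 and 59.9 ± 2.47 without fibronectin, and 48.1 ± 3.91 and 61.3 ± 4.82 with fibronectin. That of Smc2 and Smc4 was 54.3 ± 5.13 and 92.1 ± 5.09 without fibronectin, and 54.3 ± 5.76 and 94.1 ± 10.4 with fibronectin.

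The ratio of summed condensin I to condensin II FPKM was 0.599, 0.640 and 0.572 in the libraries of IgG without fibronectin and 0.588, 0.656 and 0.591 in those of IgG with fibronectin. In anti-ITGA5 it was 0.921, 1.03 and 0.919 without and 0.987, 1.03 and 0.902 with fibronectin. All anti-ITGA5 libraries therefore lay above all IgG libraries, and the highest library without fibronectin was the one that stood apart. The mean was 0.604 ± 0.034 and 0.612 ± 0.038 in the IgG groups and 0.957 ± 0.066 and 0.972 ± 0.064 in the anti-ITGA5 groups (SD, n = 3), and 0.920 in anti-ITGA5 without fibronectin when that library was left out. The sum of condensin II is dominated by Ncaph2. With geometric means in place of sums the ratio was 0.631 and 0.651 in the IgG groups and 1.03 and 1.07 in the anti-ITGA5 groups. Each pair of counterparts moved the same way: without fibronectin the ratio of Ncapd2 to Ncapd3 was 1.66 ± 0.139 in IgG and 2.58 ± 0.056 in anti-ITGA5, that of Ncapg to Ncapg2 was 0.384 ± 0.027 and 0.747 ± 0.023, and that of Ncaph to Ncaph2 was 0.393 ± 0.030 and 0.561 ± 0.056. The ratio of condensin II to the shared subunits was 0.893 ± 0.040 in IgG and 0.650 ± 0.017 in anti-ITGA5 without fibronectin, while that of condensin I to the shared subunits was 0.539 ± 0.023 and 0.622 ± 0.029.

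**Figure D3:**
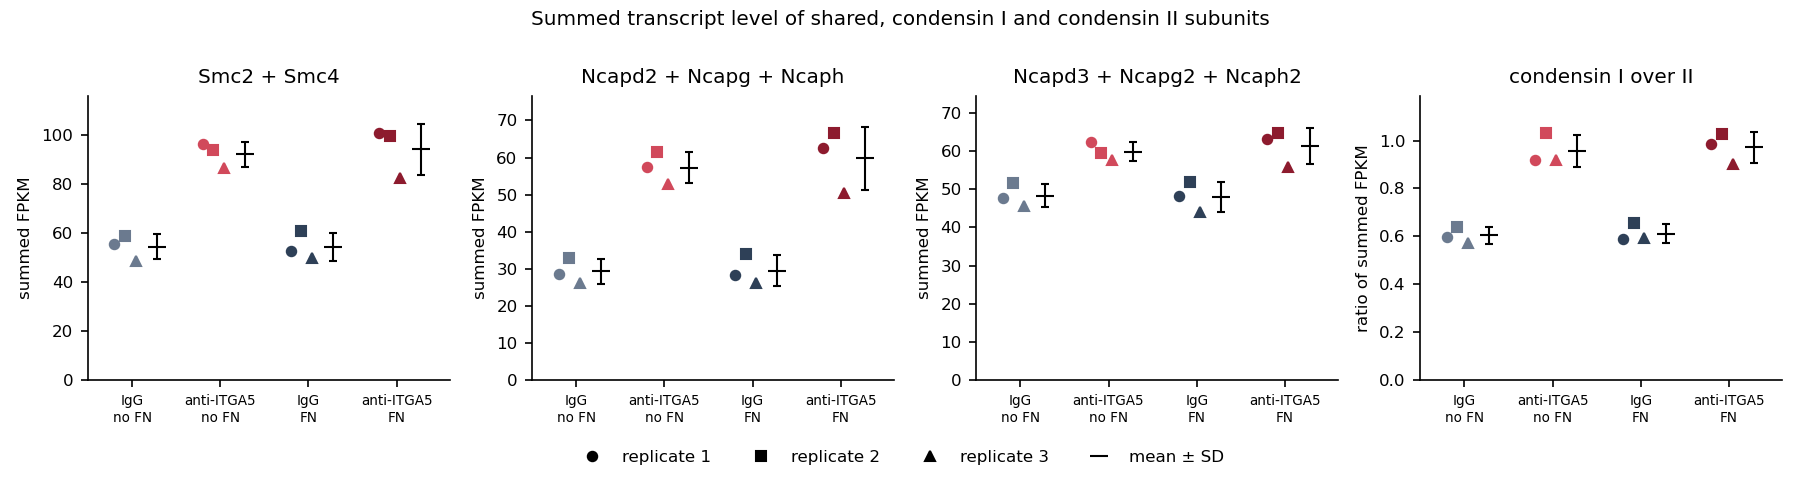
Summed FPKM of the shared, condensin I-specific and condensin II-specific subunits and the ratio of condensin I to condensin II (vertical axes, from 0) in the 4 groups. Symbols are single libraries and bars the mean ± SD of 3 libraries. The ratio lies between 0.572 and 0.656 in the IgG libraries and between 0.902 and 1.03 in the anti-ITGA5 libraries.

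The order of the levels per length differed between antibodies and was the same with and without fibronectin. In both IgG groups the mean FPKM fell in the order Ncaph2, Smc4, Smc2, Ncapd2, Ncaph, Ncapg2, Ncapd3 and Ncapg. The libraries of Ncaph2 and Smc4, of Smc4 and Smc2, of Ncapd2 and Ncaph, and of Ncaph and Ncapg2 overlapped, so the spread over libraries did not separate these neighbours. Within a library, however, Smc4 exceeded Smc2, Ncapd2 exceeded Ncaph and Ncaph exceeded Ncapg2 in 3 of 3 libraries of each IgG group, and Ncaph2 exceeded Smc4 in 2 of 3. In both anti-ITGA5 groups the order was Smc4, Smc2, Ncaph2, Ncapd2, Ncaph, Ncapg2, Ncapd3 and Ncapg. There Smc2 and Ncaph2 overlapped in either coating, Ncapg2 and Ncapd3 overlapped without fibronectin, and Ncapd2 and Ncaph as well as Ncapd3 and Ncapg overlapped with fibronectin. Of these, Smc2 exceeded Ncaph2 and Ncapd3 exceeded Ncapg in 2 of 3 libraries with fibronectin, and the other neighbours kept their order within each library.

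Within groups the subunits varied together by replicate number. Replicate 3 held the lowest FPKM in 30 of the 32 combinations of subunit and group, and replicate 2 the highest in 25. The exceptions for the lowest value were Ncaph2 in anti-ITGA5 without fibronectin, where replicate 2 was lowest, and Ncapg in IgG with fibronectin, where replicate 1 was. The share of all genes with this order was not counted, so it cannot be read as particular to the condensin genes.

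The remaining questions were whether fibronectin changed these transcripts and whether it altered the response to the antibody. No condensin subunit was called with fibronectin in IgG or in anti-ITGA5, or for the interaction of antibody and coating (edgeR; 0 of 8 also at an unadjusted p of 0.05, and 0 by DESeq2 and limma). Of all genes tested, 0.449% were called with fibronectin in IgG, 0% in anti-ITGA5 (where 461 of 12863 had an unadjusted p under 0.05, DESeq2 called 4 higher and 1 lower, limma on log2(FPKM + 1) called 0, and testing every gene of at least 1 count called 113 higher and 214 lower) and 0.0223% for the interaction. The log2 fold changes with fibronectin ran from -0.05 (Ncaph) to 0.11 (Ncapg) in IgG and from -0.06 (Ncapd3) to 0.09 (Ncapg) in anti-ITGA5, with adjusted p-values of 0.805 or more. The 95% intervals bounded the difference between -0.26 and 0.33 in IgG and between -0.21 and 0.32 in anti-ITGA5 over the 8 subunits. For the interaction the values ran from -0.03 (Ncapd3) to 0.11 (Ncaph), and the widest interval, that of Ncaph, ran from -0.25 to 0.48. FPKM overlapped between coatings for every subunit.

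Condensin was set beside the other SMC complexes, which share its architecture. Of the 5 cohesin core genes, whose complex holds sister chromatids together, 3 rose without and 4 with fibronectin, with medians of 0.30 and 0.28. The kleisin Rad21 rose most, by 0.61 ± 0.05 and 0.71 ± 0.07 on the log2 scale (SE), followed by Smc1a with 0.42 and 0.38 and Stag1 with 0.30 and 0.28. Smc3 missed the threshold without fibronectin (0.19, adjusted p = 0.0566) and passed it with fibronectin (0.26, adjusted p = 0.0103), and Stag2 was at -0.16 and -0.05 without a call. That call of Smc3 was lost in 5 of 17 alternatives (adjusted p up to 0.129), among them those without replicate 3 of IgG or replicate 1 of anti-ITGA5. Of 14 genes for cohesin loading, release and cleavage, 6 rose in each comparison and the medians were 0.13 and 0.15. Esco1, a cohesin acetyltransferase named after its value was seen, was the 1 gene of this list that fell, by 0.23 on the log2 scale without fibronectin (adjusted p = 0.0262), a call lost in 8 of 17 alternatives (up to 0.106), among them DESeq2 (0.0720) and leaving out replicate 1 or 2 of IgG or replicate 1 or 3 of anti-ITGA5. Espl1, the separase that cleaves cohesin, rose by 1.19 and 1.29, and Sgo1, which protects it at centromeres, by 0.96 and 1.18. At the low end of those that rose were Esco2, the other cohesin acetyltransferase, with 0.50 and 0.64, and Ctcf, which anchors chromatin loops, with 0.34 and 0.29. The call of Esco2 without fibronectin was lost in 6 of 17 alternatives (adjusted p up to 0.157), among them those without replicate 1 or 3 of IgG or replicate 1 of anti-ITGA5. With fibronectin, Esco2 (adjusted p = 0.0542) and Ctcf (0.0564) each lost their call in 1 of 17. Of the 8 genes of the SMC5/6 complex, which acts in DNA repair, Smc6 and Nsmce1 rose without fibronectin (0.22 and 0.40) and Smc6 alone was called with fibronectin (0.20), with Nsmce1 at 0.23 (adjusted p = 0.0771). Nsmce1 was called with fibronectin in 5 of 17 alternatives (adjusted p down to 0.00207). The share of this list called with fibronectin, 1 of 8, is near the 14.4% of all genes called higher there, and without fibronectin 2 of 8 stand beside 11.0%. The medians of that list were 0.08 and 0.12, and over the alternatives 1 to 2 of its genes were called without and 0 to 3 with fibronectin. Smc6 lost its call without fibronectin in 8 of 17 alternatives (adjusted p up to 0.225), among them leaving out any 1 library but replicate 2 of anti-ITGA5, and with fibronectin in 3 (up to 0.0921), among them those without replicate 1 of IgG or of anti-ITGA5.

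Of 18 regulators and mitotic chromosome partners of condensin, 14 rose and 1 fell without fibronectin and 15 rose and 1 fell with it, with medians of 1.08 and 1.13. The largest changes were those of Plk1, a mitotic kinase, with 2.18 and 2.27, and Ccnb2, a cyclin of the mitotic kinase CDK1, with 2.06 and 2.17 on the log2 scale. In FPKM, Plk1 was at 7.04 ± 1.34 in IgG and 31.8 ± 1.23 in anti-ITGA5 without fibronectin, and at 7.31 ± 1.49 and 35.5 ± 8.67 on fibronectin (SD, n = 3). Among the genes called in both comparisons, the smallest changes by their mean were those of Smchd1, a non-canonical SMC protein that acts on the inactive X chromosome, with 0.41 and 0.42, and Csnk2a1, a catalytic subunit of casein kinase 2, which fell by 0.17 and 0.20. Smchd1 lost its call without fibronectin in 1 of 17 alternatives (adjusted p = 0.0613). The fall of Csnk2a1 without fibronectin was not called in 8 of 17 alternatives, among them with total counts in place of TMM (adjusted p = 0.131) and when any 1 of the libraries but replicate 2 of anti-ITGA5 was left out (0.101 to 0.169).

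All 14 genes of the G2 and M phase list rose in both comparisons, with medians of 1.46 and 1.50. Ube2c, a ubiquitin-conjugating enzyme that works with the anaphase-promoting complex, and Cdc20, a co-activator of that complex, led with 2.15 and 2.44 and with 2.08 and 2.24, and Bub1 (1.13 and 1.26) and Ttk (1.03 and 1.04), kinases of the spindle checkpoint, rose least. The lowest of these, Ttk without fibronectin, was at 1.03, between Ncapd2 and Ncaph. Of 17 S phase genes, 7 rose without and 5 with fibronectin and none fell, with medians of 0.15 in either. Over the alternatives between 1 and 10 of them were called in each comparison, the fewest with limma on all genes. Of the 5 called in both comparisons, Tyms, which makes thymidylate, rose most (0.75 and 0.69), followed by the DNA polymerase gene Pola1 (0.40 and 0.40) and, named after its values were seen, the ribonucleotide reductase gene Rrm1 (0.36 and 0.44). By the mean of both comparisons the replication factor gene Gins2 (0.38 and 0.35) and the ribonucleotide reductase gene Rrm2 (0.28 and 0.36) changed least among these 5. The call of Rrm2 without fibronectin was lost in 6 of 17 alternatives (adjusted p up to 0.223), among them those without replicate 1 or 3 of IgG or replicate 1 of anti-ITGA5, with fibronectin that of Rrm2 was lost in 3 (up to 0.152, all with limma), and that of Gins2 in 5 (up to 0.173), among them those without replicate 3 of IgG or replicate 2 of anti-ITGA5. The condensin I median lay between those of the S phase and the G2 and M phase lists, and the condensin II median was closer to that of the S phase list. No gene of any of these lists was called in the fibronectin comparisons or for the interaction.

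**Figure D4:**
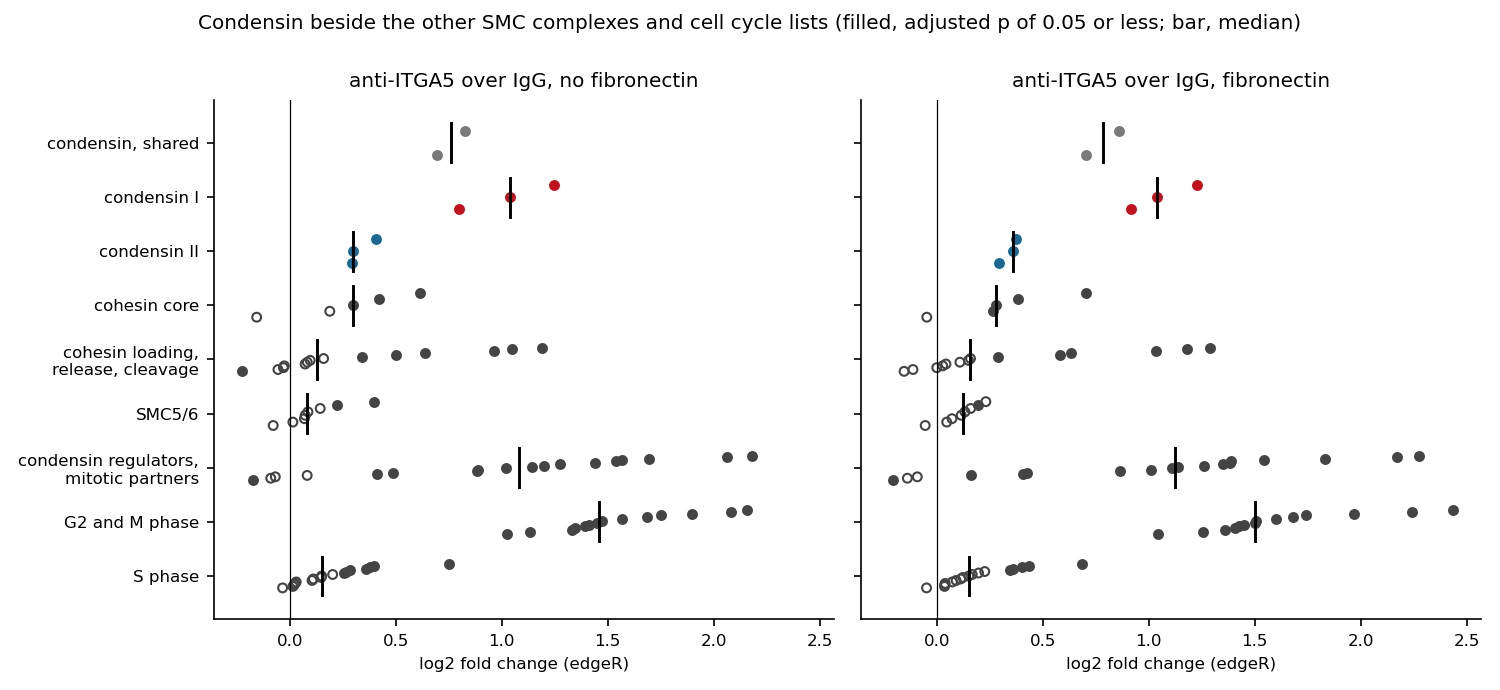
Log2 fold changes (horizontal axis, edgeR) upon ITGA5 neutralization for the condensin classes, the other SMC complexes and the cell cycle lists (vertical axis), without and with fibronectin. Each circle is a gene, filled where the adjusted p was 0.05 or less, and the bar is the list's median. The medians are 1.04 for condensin I in either panel, 0.30 and 0.36 for condensin II, and 1.46 and 1.50 for the G2 and M phase list.

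Of 15 genes for factors that bind the motifs searched, 6 rose and 2 fell without fibronectin, and 7 rose and 1 fell with it, with medians of 0.21 and 0.23. Foxm1 rose by 1.11 and 1.21, from 7.78 ± 1.26 to 16.7 ± 1.00 FPKM without fibronectin (SD, n = 3). Mybl2, which encodes B-MYB, rose by 0.50 and 0.41, and its call with fibronectin was lost in 1 of 17 alternatives (adjusted p = 0.0938). Of the NF-Y subunits, Nfyb, named after its values were seen, rose by 0.42 and 0.36, Nfyc rose by 0.24 and 0.23, and Nfya fell by 0.26 and 0.28. Nfyc was not called in 12 of 17 alternatives without fibronectin (adjusted p up to 0.168) and in 8 of 17 with it (up to 0.136), among them DESeq2 in either comparison (0.135 and 0.0769) and leaving out any library but replicate 2 of anti-ITGA5 without or replicate 3 of anti-ITGA5 with fibronectin. Nfya was not called without fibronectin when replicate 1 of IgG was left out (0.0578). The other gene that fell without fibronectin was E2f3, named after its value was seen, at -0.25 (adjusted p = 0.0140), and this call was lost without replicate 1 of IgG (0.0558), replicate 3 of IgG (0.0589) or replicate 1 of anti-ITGA5 (0.0719).

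The genes most alike in pattern were found by the root mean square difference of log2 CPM (counts scaled by TMM library size), each gene centred on its own mean, over the 12 libraries and 11678 genes. Nearest to Ncapg were Aurkb (0.066), the kinase of the chromosomal passenger complex, Cdkn2c (0.066), an inhibitor of CDK4 and CDK6, the kinetochore genes Nuf2 (0.073) and Ndc80 (0.083), and Tacc3 (0.082), a spindle protein. Nearest to Smc2 were Arhgap11a (0.038), a GTPase-activating protein, Tmpo (0.039), which encodes lamina-associated proteins, Mad2l1 (0.048), of the spindle checkpoint, Polh (0.061), a translesion polymerase, and Rad21 (0.062). Nearest to Ncapg2 were Clspn (0.048), of the replication checkpoint, Atad2 (0.049), Suz12 (0.052), of the Polycomb repressive complex, Rell1 (0.053) and Arhgap15 (0.055). Ncapg2 spanned 0.50 on the log2 scale between its lowest and highest library, against 1.73 for Ncapg, so that many genes of small range come near to it. Among the subunits themselves the closest were Ncapd3 and Ncapg2 (0.062) and Smc4 and Ncaph (0.067), and the farthest Ncapg and Ncapg2 (0.485), which are counterparts in the 2 complexes.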

How the data were processed

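Counts per gene were deposited by the authors without normalization, and FPKM per gene were deposited in a further table with the same 12 libraries. Per the study's methods and processing notes, oligo(dT)-enriched libraries were sequenced in pairs, aligned with TopHat2 2.0.9 to GRCm38 and counted on Ensembl genes with HTSeq 0.6.1, and Cufflinks 2.1.1 was used for assembly. The deposited FPKM equal counts divided by gene length and by 1 factor per library. The strand setting and the Ensembl release are not given in the sources used here. No sample column was left unused.

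Counts were tested with edgeR 4.0.16 (R 4.3.3) in the 6 libraries of each comparison, and in all 12 for the interaction, after filterByExpr (minimum count 10, minimum total 15) and TMM scaling, with the quasi-likelihood test and Benjamini-Hochberg adjustment over all genes tested. The threshold for a call was an adjusted p of 0.05. The SE is the size of the log2 fold change over the square root of F. FPKM were compared with exact permutation tests (scipy 1.17.1). DESeq2 1.42.0 and limma 3.58.1 served as alternatives. The edgeR test with TMM scaling was also run on simulated counts, without the filter on low counts, and the other steps across genes were not. All 8 subunits were named, with the 5 genes nearest in pattern to Ncapg, Ncapg2 and Smc2 (among genes whose lowest library had 10 or more counts, prior count 2). From each longer list the 2 largest and 2 smallest changes called in both antibody comparisons were named, and any gene of lists of 12 or fewer. The members and lists were chosen with earlier results of these data known.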

Additional observations from a re-analysis of the deposited data

How the results depend on the processing

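The counts of condensin subunits called in each comparison were within 1.5 times of those reported with DESeq2, DESeq2 size factors, total counts in place of TMM, other filters, all 12 libraries in 1 fit, limma on FPKM with a pseudocount of 1 or 0.1, an adjusted p of 0.01, or any library left out, with 1 exception. Using limma on log2(FPKM + 1) and all genes, 5 subunits were called higher upon ITGA5 neutralization with fibronectin, and Ncapd3 (adjusted p = 0.0620), Ncapg2 (0.0751) and Ncaph2 (0.0799) were not; the cause was not tested. By the same fit Ncaph2 missed the threshold without fibronectin (adjusted p = 0.0535), as did Ncapg2, which also missed it with limma and a filter (0.0517 and 0.0503). With geometric means the ratio of condensin I to condensin II was 1.03 in anti-ITGA5 without fibronectin, 0.651 in IgG with fibronectin and 1.07 in anti-ITGA5 with fibronectin. Over all genes, where the calls reported were 1419 higher and 1265 lower without and 1866 and 1699 with fibronectin, limma on log2(FPKM + 1) and all genes gave 684 and 536 and 1025 and 846, and an adjusted p of 0.01 gave 786 and 561 and 1118 and 928. Leaving out replicate 2 of anti-ITGA5 without fibronectin gave 1992 and 1842 in the comparison without fibronectin. With fibronectin in IgG, 42 genes were called higher and 16 lower, against 86 and 42 with DESeq2, 175 and 66 with every gene of at least 1 count, 10 and 1 in the fit of all 12 libraries, and 5 and 2 with limma; for the interaction, testing every gene of at least 1 count gave 33 and 32. The log2 fold changes of the fibronectin comparisons and of the interaction lay near 0, and 78 of 445 values under an alternative had another sign than reported, none of them called. Leaving out single libraries moved them from -0.0061 to 0.22 for Ncapg and from -0.17 to 0.052 for Ncaph with fibronectin in IgG, and from -0.10 to 0.043 for Ncapd3 in the interaction.

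The labels share replicate numbers between groups, but nothing says that a number marks shared mice or cultures, so the numbers were not taken to pair the samples. In their deviations from the group means, 10 of 18 pairs of same-numbered libraries correlated over 0.1 (0.0051 to 0.243). Of 36 pairs with different numbers, 1 did (-0.195 to 0.104). As a hint from the data, 9 of 12 libraries correlated best with their own number in every other group, and 33 of 36 combinations of library and other group did so. What same-numbered libraries share was not tested. With a replicate block, 8 subunits were called higher in each antibody comparison and 0 in the others, while over all genes the calls went to 1547 higher and 1421 lower without fibronectin, 2321 and 2217 with fibronectin, and 283 and 133 with fibronectin in IgG, where 58 were called without the block. The depth was 12954342 counts or more per library, and 3 libraries a group limit the smallest difference that can be called.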
